A study of Homo sapiens with 35 samples.

Results

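Polysome RNA of cells treated with PP242 was compared with polysome RNA of cells treated with RAD001, to ask which messages under translation differ between 2 inhibitors of the kinase mTOR. The 6 arrays, 3 per inhibitor, were taken from the sample titles and are 6 of the 35 arrays in the series. All came from SUM149, a human cell line established from an inflammatory, triple-negative breast cancer, and none of the 6 was irradiated. The series also holds DMSO, IR (read here as ionizing radiation, which the labels do not spell out) and each inhibitor with IR, and total RNA of the same groups. Used beside the 6 arrays were DMSO polysome RNA (3 arrays), PP242 with IR and RAD001 with IR in polysome RNA (3 each), and PP242 and RAD001 in total RNA (3 each). The labels give neither dose nor time, so whether the inhibitors were used at matched strength is unknown. SUM149 is a single line. The titles call the replicates biological without saying that they were separate cultures, so the p-values cover the spread seen between arrays, part or all of which could be technical.

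mTOR works in 2 complexes. mTORC1 phosphorylates S6 kinases and the 4E-BPs, which otherwise hold back the cap-binding factor eIF4E. Most sensitive to it is the translation of mRNAs that begin with a run of pyrimidines (TOP mRNAs, for terminal oligopyrimidine, which encode ribosomal proteins and translation factors). mTORC2 phosphorylates AKT and related kinases. RAD001 (everolimus), a rapamycin analog, binds FKBP12 and inhibits mTORC1 in part, while PP242 occupies the ATP site of mTOR and blocks both complexes. RNA on polysomes is the pool under translation. The level of an mRNA there follows its amount in the cell and the share of it that is loaded.

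Levels are the deposited values on a log2 scale, so a difference of 1 is a doubling of signal, and differences are PP242 minus RAD001 unless another order is named. Cell type markers were checked on the 6 arrays, which can show epithelial origin but not the line. Of 8 measured epithelial genes, EPCAM, KRT5, KRT8 and KRT18 had the highest median levels, 14.84, 16.12, 14.97 and 14.52. These lay at the 99.2 to 99.8 percentile of the measured genes. CDH1, CDH3 and KRT19 stood at 13.17, 13.41 and 12.52, and the keratin KRT14 far lower, at 6.77 (67.1 percentile). The oestrogen and progesterone receptors ESR1 and PGR lay at 4.31 and 3.45, the 33.3 and 5.4 percentile of the measured genes. The defining markers PTPRC of leukocytes, PDGFRB of fibroblasts and PECAM1 of endothelium lay at 3.84, 3.89 and 3.53, the 16.6, 18.4 and 6.8 percentile. Over all 65029 probe sets, most of them without a symbol, the array medians were 4.27 to 4.30. Array medians over each of the fibroblast, leukocyte and endothelial lists lay between 4.03 and 4.92, although CD68 of the leukocyte list stood at 14.61 and FAP of the fibroblast list at 9.22. Of the 3 lists, 0 members passed in the contrast below, with or without the replicate block.

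Replicate 3 stood apart in both inhibitor groups. Against the DMSO mean, the median DNA replication gene stood at -0.27, -0.17 and -1.57 in PP242 replicates 1, 2 and 3 and at -0.08, 0.00 and -1.54 in those of RAD001. For sterol and fatty acid synthesis genes, the median was -0.14, 0.25 and 1.12 with PP242 and 0.16, 0.21 and 1.22 with RAD001. So the array with low replication and high sterol genes was the third in each group, and a comparison that ignores the number carries this gap as spread. Arrays of the same number deviated together from their group means, with correlations over all genes of 0.53, 0.57 and 0.81. A replicate 3 that stands apart in both groups raises the correlations among replicates 1 and 2 however they are matched. PP242 replicate 1 correlated with RAD001 replicate 2 at 0.52, and PP242 replicate 2 with RAD001 replicate 1 at 0.32. These values match replicate 3 across the groups but hardly tell 1 from 2. The contrast is given both without and with the replicate number as a block.

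Without the block, 6 of 22384 genes passed at an adjusted p under 0.05 (0.0268%), 1 higher and 5 lower with PP242, while 683 had an unadjusted p under 0.05. With the replicate number as a block in a limma fit to the 12 inhibitor polysome arrays, 474 passed (2.12%), 196 higher (0.876%) and 278 lower (1.24%). All 6 were among the 474. The count rests on which arrays estimate the spread. A block over all 35 arrays gave 12 genes, and a block within the 6 arrays alone gave 2, ID3 and LIPG, though 3400 genes then had an unadjusted p under 0.05. Without replicate 3 the blocked fit gave 20 genes (0.0893%, 4 higher and 16 lower), all among the 474, and all 474 kept their sign. The arrays of that fit also served to choose the 474, which favours the shared signs and calls, so neither is independent evidence. Quantile normalization before the block gave 449, now 244 higher and 205 lower, with 398 shared. Below, passed, higher and lower refer to the blocked fit of the 12 arrays, ± is its standard error and adjusted p its Benjamini-Hochberg value over all genes, unless the fit without the block is named. The 474 had a median difference of 0.56 in size. They ranged from -3.38 for ID1 to 1.96 for HAS2.

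Several of the genes that fell furthest with PP242 relative to RAD001 were targets and feedback inhibitors of Smad signalling. Smads carry signals of TGF-beta and BMP ligands to the nucleus, and ID1 to ID4, helix-loop-helix proteins that hold back bHLH factors, are classical BMP targets. Of 26 measured genes of this group, 8 passed, all lower (30.8%), and the median over the 26 was -0.27 against -0.01 for all genes. The list was drawn up with the fall of several of these genes against DMSO known, so its direction is no independent evidence.

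SKIL, which encodes the Smad corepressor SnoN, stood at 10.58, 10.71 and 10.82 in the PP242 arrays, at 12.09, 11.82 and 12.03 in the RAD001 arrays and at 11.84, 11.75 and 11.99 in DMSO. Every PP242 array lay below every RAD001 and DMSO array. The difference was -1.27 ± 0.09 (adjusted p = 0.000857), 2.42-fold lower with PP242, and without the block the adjusted p was 0.000358. SKIL passed at an adjusted p under 0.05 in 18 of 20 other settings and missed it where the 6 arrays alone set the spread, with and without the block. Its difference also fell short of the size of 1.5 that the design text asks for. PMEPA1, a membrane protein that withholds receptor Smads, read 9.17, 9.20 and 8.84 with PP242 and 10.54, 10.42 and 9.90 with RAD001. Its groups did not overlap, and it differed by -1.22 ± 0.11 (adjusted p = 0.002) with the block and at an adjusted p of 0.0297 without it. Leaving out single arrays without the block kept PMEPA1 past the threshold in 1 of 6 cases.

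The inhibitory Smads SMAD7 and SMAD6 followed the same order. SMAD7, which blocks the receptors, read 5.48, 5.80 and 5.33 with PP242 and 7.04, 7.26 and 6.40 with RAD001. SMAD6, the BMP-selective inhibitor, read 5.07, 4.99 and 4.82 and 6.34, 6.33 and 5.60. In neither gene did the groups overlap, and replicate 3 was the lowest array of each group. The differences were -1.36 ± 0.11 (adjusted p = 0.00163) and -1.13 ± 0.13 (adjusted p = 0.0059), with adjusted p values of 0.0865 and 0.509 without the block.

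The SMAD6 promoter is shown because it carries, directly before the start site, the palindromic Smad-binding element GTCTAGAC (the same on both strands), in capitals. Promoter windows are those of RefSeq on GRCh38.p14, the first listed window per gene, and 22 of the 26 genes had one. Of these, 1 held GTCTAGAC in the 250 bases before the start (4.55%), against 21 of 13874 windows of measured protein-coding genes (0.151%). The GC-rich element GGCGCC, also palindromic, lay in 7 of the 22 (31.8%) and in 3040 of the 13874 (21.9%). Of the 7, SKIL and PMEPA1 passed as lower, while BAMBI, TGFBI, GREM1, BMP4 and BMPR2 did not pass. A match is a description of letters and not a bound site.
SMAD6, chr15:66702178-66702235, plus strand: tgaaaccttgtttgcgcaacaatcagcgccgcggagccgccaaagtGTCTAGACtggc

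ID1 showed the widest gap of all genes that passed. Its levels were 7.68, 8.63 and 5.60 with PP242, 11.46, 10.95 and 9.65 with RAD001 and 11.14, 11.42 and 11.41 in DMSO. The groups did not overlap, but the arrays within each spread widely, and replicate 3 was lowest in both. The difference was -3.38 ± 0.34 (adjusted p = 0.00401) with the block, 10.4-fold lower, and the adjusted p without it was 0.634. ID3 read 5.92, 6.13 and 5.43 with PP242 and 7.92, 8.01 and 7.23 with RAD001. Within the pairs it was lower by similar amounts, -2.00, -1.89 and -1.80, which made it the gene of lowest p with the block, at -1.90 ± 0.08 (adjusted p = 2.16e-05), against an adjusted p of 0.151 without it.

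ID4 and ID2 differed by less. ID4 read 5.26, 4.63 and 4.89 with PP242 and 6.22, 6.03 and 5.62 with RAD001 and passed in both fits, at -1.03 ± 0.16 (adjusted p = 0.0184) with the block and at an adjusted p of 0.0422 without. ID2 read 5.78, 5.07 and 6.19 and 6.21, 6.21 and 6.77 and differed by -0.72 ± 0.15 (adjusted p = 0.0481). ID4 missed the threshold in the blocked fit without replicate 3, as did ID2. The 18 members that did not pass ranged from -0.59 to 0.29. MSC, or musculin, a bHLH repressor outside this list, read 6.30, 5.83 and 6.33 with PP242 and 8.20, 8.10 and 7.93 with RAD001. It differed by -1.92 ± 0.17 (adjusted p = 0.00208), with an adjusted p of 0.0422 without the block, a call that was lost on leaving out any of the 6 arrays.

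**Figure D1:**
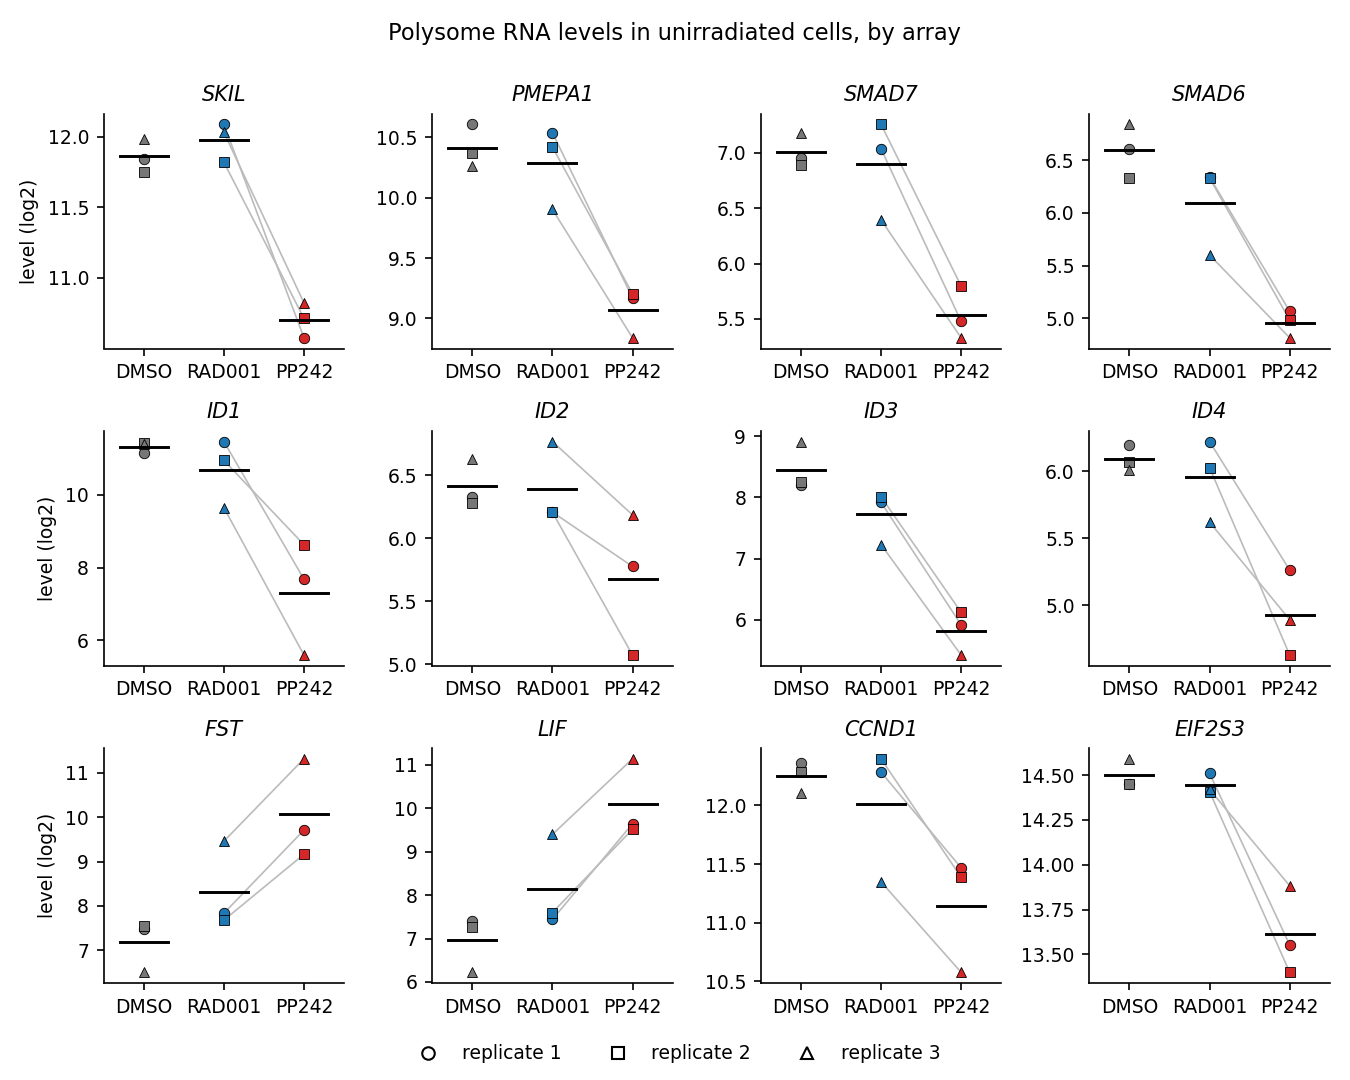
Polysome RNA level (log2) of 12 genes in the 3 DMSO, 3 RAD001 and 3 PP242 arrays without IR. Symbols mark the replicate number, black bars the group mean, and grey lines join RAD001 and PP242 arrays of the same number. SKIL, PMEPA1, SMAD6, SMAD7 and the 4 ID genes lie lower with PP242 than with RAD001 in all 3 pairs, and FST and LIF higher.

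HAS2, LIF and FST were the largest rises among the 474. Follistatin (FST), which binds activins and BMPs outside the cell, read 9.71, 9.16 and 11.32 with PP242, 7.83, 7.67 and 9.46 with RAD001 and 7.48, 7.54 and 6.50 in DMSO. The PP242 and RAD001 arrays overlapped because replicate 3 was high in both, but PP242 exceeded RAD001 in each pair, by 1.74 ± 0.10 (adjusted p = 0.000114), 3.35-fold. LIF, a cytokine of the IL6 family, read 9.64, 9.51 and 11.14 with PP242 and 7.44, 7.60 and 9.39 with RAD001 without overlap, a difference of 1.95 ± 0.13 (adjusted p = 0.000313). HAS2, a hyaluronan synthase, read 14.00, 13.26 and 15.17 and 11.51, 11.54 and 13.52 and differed by 1.96 ± 0.20 (adjusted p = 0.00401). LIPG, the endothelial lipase, was tighter, at 11.34, 11.33 and 11.79 against 9.78, 9.86 and 10.20, and differed by 1.54 ± 0.16 (adjusted p = 0.00401). Without the block the adjusted p was 1 for each of FST, LIF and HAS2 and 0.447 for LIPG.

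Among translation genes, the members that passed as lower were mostly TOP mRNAs. Of 48 measured cytosolic ribosomal protein genes, 45 had a difference below 0 and 6 passed, all lower (12.5%): RPL6, RPL19, RPS9, RPS10, RPS15A and RPS16. Their median difference was -0.28, and in the 3 pairs it was -0.33, -0.30 and -0.26. In relation to DMSO the median was -0.53 with PP242 and -0.28 with RAD001, values that share the DMSO arrays. None of the 48 passed without the block, or with it once replicate 3 was left out. Probe sets of 21 more ribosomal protein genes also name other genes and were left out, and pseudogenes of this family may add signal to those that were.

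Of 21 other TOP mRNAs, 20 had a difference below 0 and 7 passed, all lower (33.3%). The 7 encode EIF2S3, the gamma subunit of eIF2 that holds GTP, 4 subunits of eIF3 (EIF3F, EIF3G, EIF3H and EIF3L), the elongation factor subunit EEF1D and the histone chaperone NAP1L1. The median over the 21 was -0.30, and -0.34, -0.35 and -0.22 in the pairs. EIF2S3 read 13.55, 13.40 and 13.88 with PP242, 14.51, 14.41 and 14.42 with RAD001 and 14.45, 14.45 and 14.59 in DMSO. All 3 PP242 arrays lay below all arrays of the other groups, with a difference of -0.83 ± 0.10 (adjusted p = 0.00528) against RAD001, or 1.78-fold, with an adjusted p of 0.0422 without the block. EIF2S3 was the only TOP mRNA of either list to pass in the blocked fit without replicate 3.

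EIF3F read 10.90, 10.83 and 11.92 with PP242 and 11.80, 11.73 and 12.56 with RAD001. These overlap because replicate 3 was high in both, and the paired difference was -0.81 ± 0.08 (adjusted p = 0.00391). Its pseudogene EIF3FP3, chosen after its values were seen, also passed at -1.11, and signal of the pair cannot be told apart where probes match both. EIF3L, EIF3G and EIF3H differed by -0.59 (adjusted p = 0.0166), -0.53 (adjusted p = 0.0369) and -0.52 (adjusted p = 0.0152). NAP1L1 differed by -0.61 (adjusted p = 0.00678) and EEF1D by -0.34 (adjusted p = 0.0266).

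The first transcribed bases of the ribosomal protein and other TOP genes that passed are printed where RefSeq gave a window, to show the start that defines a TOP mRNA and where it was missing. Each line holds 10 bases before the start and 20 from it, and the capitals are the run of C and T that opens with a C at the first base. RPL6 and RPL19 have no such run at the listed start, though the 10 bases printed before the RPL19 start are all C or T. EIF5, which encodes a GTPase-activating factor of initiation, and EIF4EBP2, a 4E-BP, are given for contrast and have none either.
EIF2S3, chrX:24054946-24054975, plus strand: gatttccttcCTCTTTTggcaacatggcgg
EIF3F, chr11:7987327-7987356, plus strand: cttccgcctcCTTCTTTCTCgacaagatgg
NAP1L1, chr12:76084666-76084695, minus strand: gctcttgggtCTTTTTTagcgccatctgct
RPS9, chr19:54200848-54200877, plus strand: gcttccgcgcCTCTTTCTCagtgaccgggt
RPS10, chr6:34426050-34426079, minus strand: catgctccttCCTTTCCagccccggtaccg
RPS16, chr19:39435930-39435959, minus strand: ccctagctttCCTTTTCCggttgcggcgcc
RPL6, chr12:112411423-112411452, minus strand: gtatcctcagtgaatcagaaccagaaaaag
RPL19, chr17:39200273-39200302, plus strand: tctccccttcgcagataatgggaggagccg
EIF5, chr14:103334227-103334256, plus strand: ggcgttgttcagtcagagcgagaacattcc
EIF4EBP2, chr10:70404135-70404164, plus strand: gccttcgcccgcttccggtcgtcgtcgtcg

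A start of this kind, C followed by at least 4 of C or T, was present in 32 of 43 ribosomal protein windows (74.4%), in 13 of 14 windows of the other TOP mRNAs (92.9%) and in 631 of 13874 windows overall (4.55%). The start alone did not mark lower mRNAs to that extent. Outside the 2 lists, 586 genes had such a start. Their median difference was -0.03, 58.9% were below 0, and 13 passed lower (2.22%), against a median of -0.01, 54.5% below 0 and 197 lower (1.49%) among 13243 genes without it. Ribosomal protein genes with and without the run at the listed base had medians of -0.27 (32 genes) and -0.28 (11 genes). The split depends on where the start is listed. A run that opened within 5 bases of it was present in 37 of the 43 ribosomal protein windows (86%), against 3067 of 13874 overall (22.1%). The 11 genes thus include some with a run close by, and the 2 medians do not compare genes with and without a TOP start.

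Initiation factors outside the TOP class did not move together. Of 30, 1 was higher and 1 lower, and the median was -0.01. EIF5 was higher with PP242, at 12.98, 12.84 and 12.76 against 12.53, 12.45 and 12.34, a difference of 0.42 ± 0.06 (adjusted p = 0.0174). EIF4EBP2 was lower, at 10.69, 10.29 and 10.39 against 11.71, 11.28 and 11.23, a difference of -0.95 ± 0.20 (adjusted p = 0.0444). Neither gene's groups overlapped. EIF4EBP2 did not pass in the blocked fit after quantile normalization. Ribosome biogenesis genes had a median of 0.05, and POLR1A, the large subunit of RNA polymerase I, was the 1 of 46 to pass, at 0.56 (adjusted p = 0.0362). Mitochondrial ribosomal protein genes had a median of -0.05, with MRPL37 and MRPS15 lower, 2 of 72. With replicate 3 left out of the blocked fit, no gene named in this paragraph passed.

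Mitosis and DNA replication genes leaned opposite ways. Of 56 mitosis and G2/M genes, 52 had a difference above 0 and 14 passed, all higher with PP242 (25%). Of 51 DNA replication genes, 40 were below 0 and 7 passed, all lower (13.7%). The medians were 0.32 and -0.17. In each pair the 2 lists lay on opposite sides of 0, at 0.44, 0.31 and 0.28 for mitosis and -0.20, -0.14 and -0.19 for replication. In bulk RNA, fewer cells of a phase and less RNA per cell cannot be told apart. With replicate 3 left out of the blocked fit, 0 members of either list passed.

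CENPE, a kinetochore motor, showed the widest mitotic gap and was the gene of the 14 whose groups did not overlap. It read 11.56, 11.08 and 10.51 with PP242 and 10.03, 10.29 and 9.23 with RAD001, a difference of 1.20 ± 0.16 (adjusted p = 0.0113). TTK, the checkpoint kinase MPS1, read 11.41, 11.28 and 10.03 and 10.49, 10.57 and 9.31, with replicate 3 low in both groups and PP242 above RAD001 in each pair, by 0.79 ± 0.08 (adjusted p = 0.00422). CDCA8 (borealin) and INCENP of the chromosomal passenger complex differed by 0.81 (adjusted p = 0.00422) and 0.56 (adjusted p = 0.0442). The kinase PLK1 differed by 0.62 (adjusted p = 0.0249), topoisomerase TOP2A by 0.66 (adjusted p = 0.0249), the kinetochore protein NDC80 by 0.66 (adjusted p = 0.0289) and the spindle protein ASPM by 0.80 (adjusted p = 0.0407). The others were HMMR and the kinesins KIF2C, KIF4A, KIF14, KIF15 and KIF18A, between 0.51 and 0.76.

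Among replication genes, CDC6, the loader of the helicase, read 10.71, 10.88 and 8.20 with PP242 and 11.43, 11.70 and 8.93 with RAD001. Replicate 3 was lower than the others by over 2 units in both groups, and within pairs PP242 was lower, at -0.75 ± 0.09 (adjusted p = 0.00786). MCM10, an initiation factor, differed by -0.59 (adjusted p = 0.0266) and the kinase CDC7 by -0.39 (adjusted p = 0.0383). GINS1, POLD3, POLE2 and RFC5, parts of the replisome, lay between -0.54 and -0.38. Without the block, all 7 had an adjusted p of 1.

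Of 29 G1/S regulators, 6 were lower and 2 higher with PP242, and 0 of the 8 passed without replicate 3. Cyclin D1 (CCND1), the D-type cyclin that links growth signals to CDK4 and CDK6, read 11.47, 11.39 and 10.58 with PP242, 12.28, 12.40 and 11.35 with RAD001 and 12.36, 12.28 and 12.11 in DMSO. PP242 was below RAD001 in each pair, at -0.87 ± 0.07 (adjusted p = 0.00178), or 1.82-fold, although RAD001 replicate 3 lay among the PP242 arrays. SKP2, the F-box protein that targets p27, differed by -1.10 ± 0.16 (adjusted p = 0.0152), the phosphatase CDC25A by -0.77 ± 0.09 (adjusted p = 0.00526) and cyclin E2 (CCNE2) by -0.62 ± 0.11 (adjusted p = 0.0245). E2F2 and CDK2 were lower by smaller amounts, -0.51 and -0.34. The CDK-binding proteins CKS2 and CKS1B went the other way. CKS2 read 13.88, 13.79 and 13.90 with PP242 and 13.01, 12.39 and 12.94 with RAD001 without overlap, a difference of 1.08 ± 0.22 (adjusted p = 0.0393). Replication-dependent histones had a median of 0.20 with 1 of 22 past the threshold, H1-1, at -0.96.

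**Figure D2:**
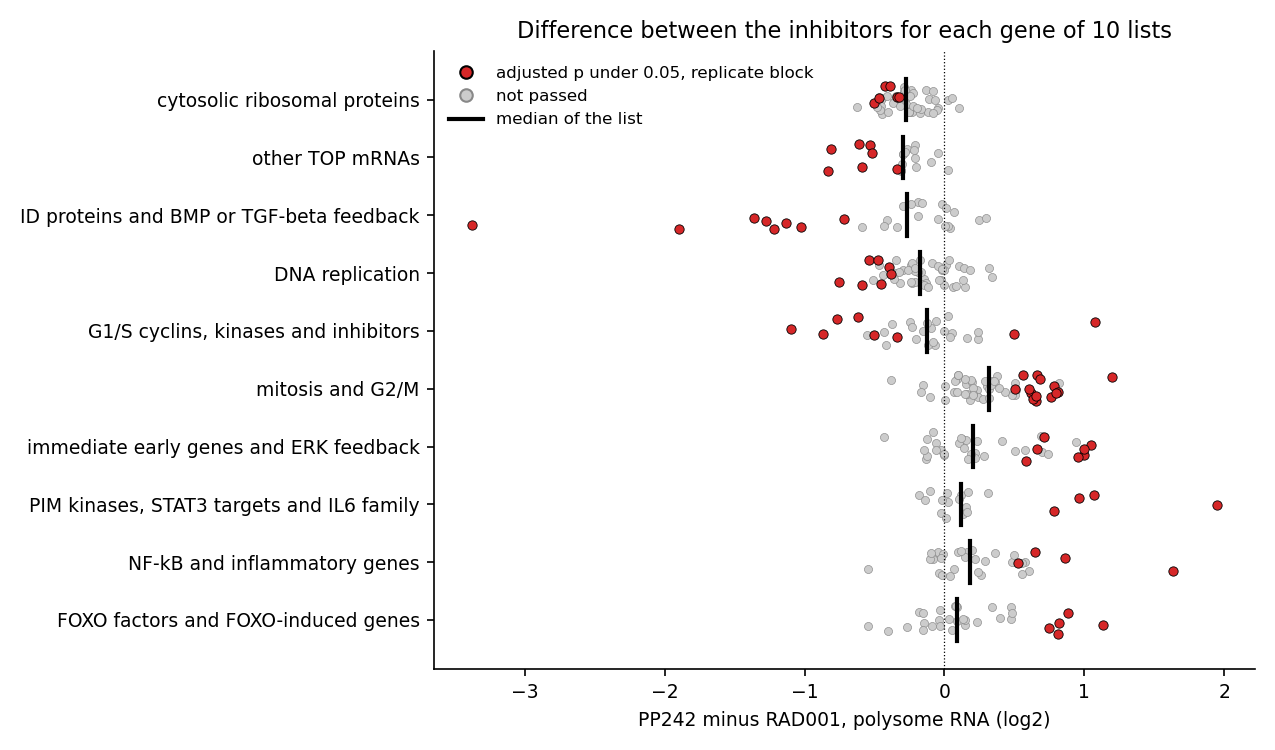
Difference between PP242 and RAD001 in polysome RNA (log2, x axis) for each measured gene of 10 lists (rows). Red points passed at an adjusted p under 0.05 with the replicate block, grey points did not, and black bars are list medians. Red points lie to the left in the ribosomal protein, TOP, ID and replication lists and to the right in the mitosis, immediate early, PIM, NF-kB and FOXO lists.

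A minority of the genes induced by growth factor and stress signalling passed. Of 36 immediate early genes and ERK feedback genes, 7 passed, all higher (19.4%), and the median was 0.20, with 11 members below 0. With replicate 3 left out of the blocked fit, 0 of the 7 passed. DUSP6 and DUSP5, phosphatases that switch off ERK and are transcribed when ERK is active, differed by 1.00 ± 0.11 (adjusted p = 0.00422) and 1.05 ± 0.09 (adjusted p = 0.0021). DUSP6 read 8.40, 8.32 and 9.33 with PP242, 7.34, 7.58 and 8.13 with RAD001 and 7.87, 7.46 and 7.66 in DMSO. Its PP242 arrays lay above all RAD001 arrays, with replicate 3 highest in both groups. PHLDA1 differed by 0.95 (adjusted p = 0.00645), the Fos family member FOSL1 by 0.72 (adjusted p = 0.0261), the transcription factor MYC by 0.66 (adjusted p = 0.0161), IER5 by 0.58 (adjusted p = 0.0184) and the matricellular protein CCN2 by 1.00 (adjusted p = 0.0425). The remaining 29 ranged from -0.44 to 0.94.

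Of 19 genes of the PIM, STAT3 and IL6 group, LIF, PIM1, PIM3 and IL6R passed, all higher (21.1%), and LIF alone of the 4 also passed without replicate 3. PIM1, a kinase induced by STATs that shares substrates with AKT, read 12.50, 12.56 and 13.00 with PP242, 11.63, 11.76 and 11.78 with RAD001 and 10.71, 11.08 and 10.82 in DMSO. The 3 groups did not overlap and stood in the order DMSO, RAD001, PP242, with 0.96 ± 0.14 (adjusted p = 0.013) between the inhibitors. PIM3 and the receptor IL6R differed by 0.79 (adjusted p = 0.021) and 1.07 (adjusted p = 0.0419).

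Of 32 NF-kB and inflammatory genes, 4 were higher (12.5%), of which 0 passed without replicate 3. The chemokine CXCL8 read 13.17, 11.99 and 11.86 with PP242 and 10.99, 10.64 and 10.49 with RAD001 without overlap, a difference of 1.63 ± 0.30 (adjusted p = 0.0279). TNFAIP3 (A20) and NFKBIE, inhibitors of the pathway, and the kinase IRAK2 differed by 0.86 (adjusted p = 0.0297), 0.53 (adjusted p = 0.0496) and 0.65 (adjusted p = 0.0367). The median of the list was 0.18.

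Of 31 FOXO factors and FOXO-induced genes, 5 were higher (16.1%), KLF6, TRIB1, TXNIP, CITED2 and GADD45A, and none lower. Without replicate 3, 0 of the 5 passed. AKT, the mTORC2 substrate, keeps FOXO factors out of the nucleus. The median was 0.09, with members not passed from -0.55 to 0.49. KLF6 differed by 1.14 ± 0.16 (adjusted p = 0.0117), and CITED2, whose replicate 3 stood at 12.22 and 11.48 against 8.23 to 9.58 in the other 4 arrays, by 0.81 ± 0.17 (adjusted p = 0.0445). Of 24 growth factor receptors, ephrin ligands and adaptors, MET, EPHA2 and the ligand EFNB1 were higher and none lower. EPHA2, an ephrin receptor, differed by 0.73 (adjusted p = 0.0189) and MET, the HGF receptor, by 0.63 (adjusted p = 0.0419). HBEGF was the 1 of 7 EGFR ligands to pass, at 1.30 ± 0.23 (adjusted p = 0.026). Its PP242 and RAD001 arrays overlapped. None of these receptor and ligand genes passed in the blocked fit without replicate 3.

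Single genes of other lists also differed, and 0 of these passed without replicate 3. MCL1, an antiapoptotic BCL2 relative with a short-lived protein, read 12.94, 13.17 and 13.76 with PP242 and 12.41, 12.39 and 13.06 with RAD001, higher in each pair by 0.67 ± 0.07 (adjusted p = 0.00455). ATF4, the integrated stress response factor, was higher by 0.66 ± 0.14 (adjusted p = 0.0425), while 1 of the 40 genes of its targets and amino acid supply list was lower, the glycine transporter SLC6A9, at -0.45 (adjusted p = 0.0329). ERN1 (IRE1), the sensor of unfolded protein, differed by 0.92 ± 0.12 (adjusted p = 0.0085) and RRAGC, a Rag GTPase of the mTORC1 amino acid branch, by 0.52 ± 0.11 (adjusted p = 0.0444). RRAGC was the 1 of 43 mTOR, PI3K and AKT components to pass. Of 22 p53 targets, the kinase PLK3 was higher (0.66) and CCNG1 and TIGAR lower (-0.68 and -0.42). Of 34 genes of homologous recombination and the Fanconi pathway, the nucleases EXO1 and EME1 were lower, at -0.68 (adjusted p = 0.00528) and -0.43 (adjusted p = 0.0447).

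Among genes outside the lists, SMG9 and SMG1, subunits of the kinase complex of nonsense-mediated decay, were higher by 1.19 ± 0.14 (adjusted p = 0.00697) and 0.74 ± 0.08 (adjusted p = 0.00422). The SMG1 pseudogenes SMG1P2, SMG1P5 and SMG1P7, chosen after their values were seen, also passed as higher, at 0.53, 0.50 and 0.47. Signal of SMG1 and its pseudogenes cannot be told apart where probes match both. AMIGO2, a cell adhesion protein, differed by -1.53 ± 0.18 (adjusted p = 0.00559), and the polyamine enzyme SMOX higher by 1.28 ± 0.11 (adjusted p = 0.00206). RASSF1, a tumour suppressor that binds Ras, was the only gene that passed as higher without the block. It read 5.14, 5.08 and 5.28 with PP242 and 4.68, 4.61 and 4.83 with RAD001, a small difference of 0.46 ± 0.07 (adjusted p = 0.0184) at a low level, with an adjusted p of 0.0297 without the block and 1 of 6 left-out arrays keeping it.

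Several pathways had no gene past the threshold. These were 29 sterol and fatty acid synthesis genes (median -0.12), 38 interferon response genes (-0.05), 34 glycolysis and hypoxia genes (-0.13) and 40 lysosome and autophagy genes (0.03). The 8 epithelial identity genes were all above 0, with a median of 0.32, and 0 passed. No overlap between the groups was found for 2317 genes (10.4%), 1058 with PP242 above (4.73%) and 1259 below (5.62%). Among the 26 Smad and ID genes, 11 lay wholly below.

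The same contrast was available in irradiated cells, on 6 other arrays. There, 1 gene passed without the block (0.00447%), SKIL, and 221 with it (0.987%), 144 higher (0.643%) and 77 lower (0.344%). Of the 474 genes, 164 passed with IR too, 34.6% of the 474 and 74.2% of the 221, all in the same direction, and 464 had the same sign. Both blocked values come from 1 fit and share its estimate of spread, but no array. ID3 differed by -2.20 (adjusted p = 5.25e-06) with IR and ID1 by -2.81 (adjusted p = 0.00824). SKIL, SMAD7 and PMEPA1 gave -1.28 (adjusted p = 0.000658), -1.43 (adjusted p = 0.000742) and -1.15 (adjusted p = 0.0021). FST, LIF and HAS2 gave 1.79 (adjusted p = 9.15e-05), 1.79 (adjusted p = 0.000646) and 2.13 (adjusted p = 0.00222). These 8 genes kept both direction and call in irradiated cells.

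Of the list counts, 16 mitosis genes were higher and none lower with IR, with a list median of 0.48, and PLK1 stood at 1.13 (adjusted p = 0.00265). DNA replication genes had 2 lower and a median of -0.11, with pair medians of -0.24, 0.01 and -0.09. Immediate early and ERK feedback genes had 7 higher, and NF-kB and inflammatory genes 1. Of the ribosomal proteins, 2 were lower, with a median of -0.29. Of the other TOP mRNAs, EIF2S3, EIF3F and NAP1L1 were lower, at -0.66 (adjusted p = 0.0139), -0.65 (adjusted p = 0.00858) and -0.63 (adjusted p = 0.00757). ID4, at -0.68 (adjusted p = 0.0979), and RASSF1, at 0.25 (adjusted p = 0.156), missed the threshold with IR. Whether IR changed the difference was tested as an interaction. It passed for 0 genes, with 78 at an unadjusted p under 0.05, and for 0 with the block, with 711.

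Averaged over cells without and with IR, 6 against 6 arrays, 61 genes passed without a block (0.273%), 34 higher and 27 lower, and 1483 with it (6.63%). Quantile normalization gave 117 without a block, 81 of them higher. SKIL averaged -1.28, PMEPA1 -1.18, SMAD7 -1.40, ID3 -2.05 and EIF2S3 -0.75, with adjusted p of 3.05e-07, 0.000205, 0.00061, 0.000627 and 0.000656 without a block. Among rises, LIPG averaged 1.61, SMG9 1.09 and ELP3 0.48, each past the threshold without a block.

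**Figure D3:**
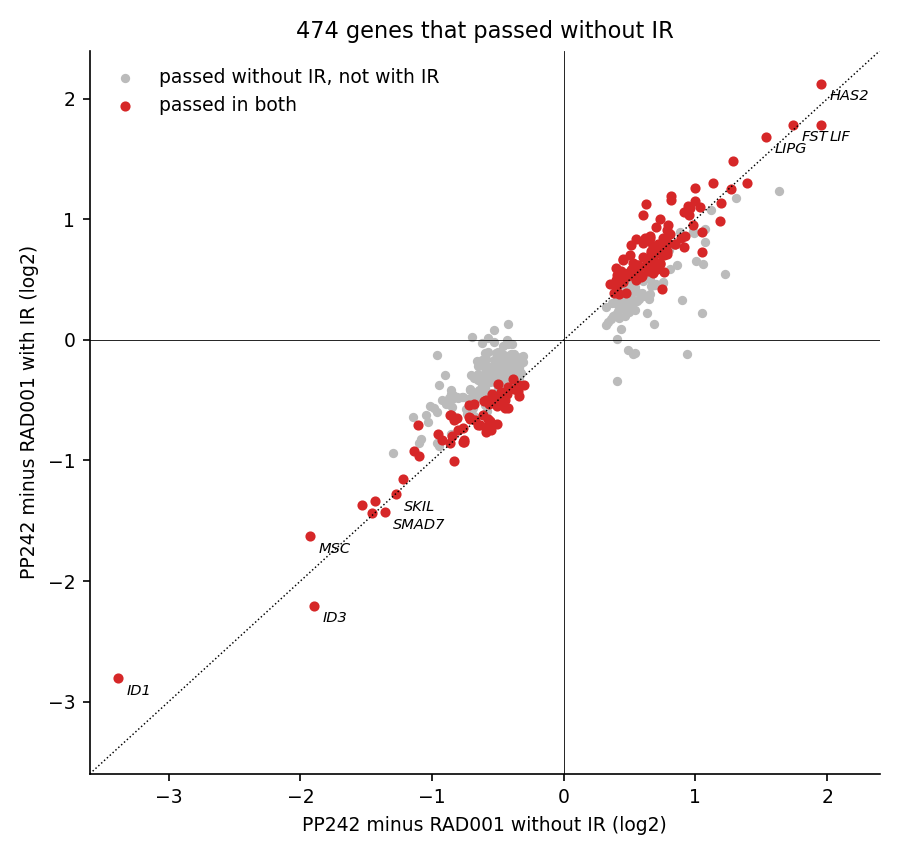
PP242 minus RAD001 in polysome RNA (log2) without IR (x axis) and with IR (y axis) for the 474 genes that passed without IR in the blocked fit. Red points, 164 genes, passed in both, and the dotted line marks equal differences. Of the 474, 464 had the same sign on both axes.

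Total RNA was compared to see how much of the polysome difference was present in the whole RNA pool. In total RNA 1 gene passed without the block (0.00447%), SKIL, at -1.30, and 0 passed with it, with 814 at an unadjusted p under 0.05. Of the 474 polysome genes, 449 had the same sign in total RNA. The difference in polysome RNA minus that in total RNA, called translational efficiency in the design text, passed for 0 genes (300 at an unadjusted p under 0.05), or 0 with the block (451). The following are therefore values only.

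All 8 Smad and ID genes that passed were also below 0 in total RNA. The polysome and total differences were -1.27 and -1.30 for SKIL, -1.90 and -1.86 for ID3, -3.38 and -3.02 for ID1 and -0.72 and -0.82 for ID2. The gap between them was wider for SMAD7, at -1.36 and -0.84, and for ID4, at -1.03 and -0.61. PMEPA1 gave -1.22 and -1.05, and SMAD6 -1.13 and -0.98. The list median was -0.27 in polysome and -0.18 in total RNA. LIPG gave 1.54 and 1.53 and LIF 1.95 and 1.82, although total RNA spread widely between pairs. The 7 other TOP mRNAs that passed lay between -0.10 and 0.01 in total RNA. They were chosen by their polysome difference, which favours such a gap. EIF2S3 gave -0.83 in polysome and -0.10 in total RNA, EIF3F -0.81 and -0.08, NAP1L1 -0.61 and -0.03, and EIF3H -0.52 and 0.01. The list median was -0.30 in polysome and -0.10 in total RNA, and -0.28 and -0.17 for ribosomal proteins. In total RNA the pair medians were 0.03, -0.24 and -0.04 for the other TOP mRNAs. For ribosomal proteins they were -0.18, -0.28 and -0.08, the second close to its polysome value of -0.30. Mitosis genes had a median of 0.32 in polysome and 0.06 in total RNA. In total RNA the pairs stood at 0.02, -0.18 and 0.30, the third above its polysome value of 0.28. The 14 that passed differed among themselves. NDC80 gave 0.66 and 0.04, TOP2A 0.66 and 0.03 and ASPM 0.80 and -0.02, while CDCA8 gave 0.81 and 0.75, CENPE 1.20 and 0.46 and PLK1 0.62 and 0.42. Of the G1/S regulators, CKS2 gave 1.08 and 0.06. DNA replication genes were lower in both, at -0.17 and -0.22.

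**Figure D4:**
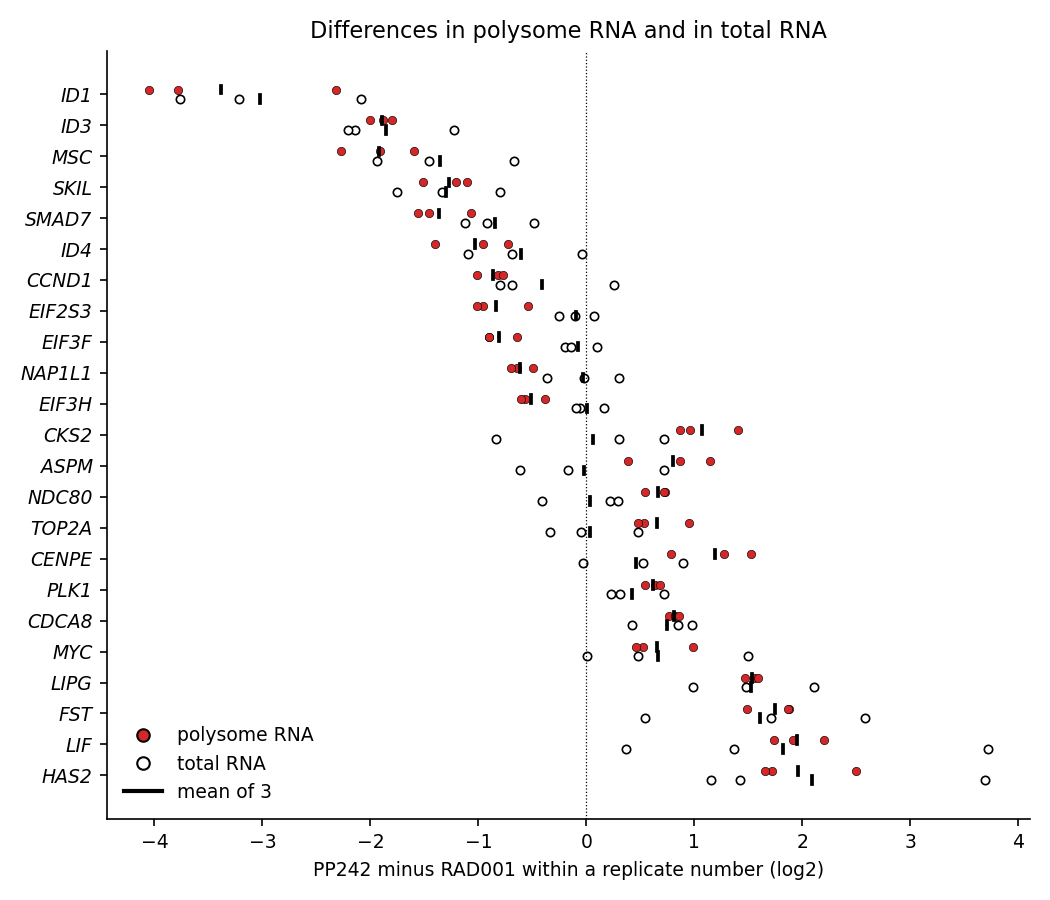
PP242 minus RAD001 (log2, x axis) within each replicate number for 23 genes, in polysome RNA (red) and in total RNA (open), without IR. Bars are means of 3. For EIF2S3, EIF3F, NAP1L1, EIF3H, CKS2, ASPM, NDC80 and TOP2A the total RNA means lie near 0 while the polysome means do not, and the means of CENPE, PLK1 and CDCA8 lie above 0 in both.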

How the data were processed

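SUM149 RNA had been hybridised to Affymetrix human transcriptome arrays. The deposited series table holds values that are log2 by their range (1.85 to 19.9). The authors' background correction, normalization and log base are not stated in the labels. The labels' growth and extraction protocols describe mouse forelimbs and not a cell line; they were left aside. Of 65029 probe sets, 23077 carried 1 symbol in the platform annotation, and the brightest per symbol over all 35 arrays was kept, leaving 22384 genes. The number of arrays limits the precision.

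Contrasts were fitted with limma 3.58.1 in R 4.3.3 to 12 group means over all 35 arrays, with 23 residual degrees of freedom and Benjamini-Hochberg adjustment over all genes. The alternative with the replicate number as a block fitted the 12 polysome (or 11 total) arrays of the inhibitors. The pairing is read from the data: titles give replicate numbers, and same-number deviations correlated at 0.53, 0.57 and 0.81, against -0.70 to 0.52 for other numbers. Named genes are those that passed, the 10 of lowest p each way without overlap, list members that passed or had the 3 lowest p, genes described before in these data, and the 3 of lowest p each way in the other contrasts. After the data were seen, genes of lowest p and list members that passed with the block were added. The members and lists were chosen with earlier results of these data known. The fits were tested on simulated data in which inhibitor arrays of the same number shared a built-in effect. That test cannot show whether the block suits the real arrays. Not every named gene is described.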

Additional observations from a re-analysis of the deposited data

Results flagged for a closer look

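In 4 of the named genes all 3 pairs went one way in polysome RNA and all 3 the other way in total RNA. The share over all genes is not given. ABRA differed by 0.2427 in polysome and -0.3371 in total RNA, ARF5 by 0.2337 and -0.5184, DEFB134 by -0.1801 and 0.4315, and FBXO4 by -0.2114 and 0.2861. The limma test of the difference gave unadjusted p of 0.0116, 0.0176, 0.00255 and 0.000681, and an adjusted p of 1 for each.

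In 2 of the named genes, both olfactory receptors, the pairs went one way without IR and the other way with IR. OR2T33 differed by 0.2767 and -0.4621 and OR6C70 by 0.4269 and -0.4681. The interaction had unadjusted p of 0.00938 and 0.00766 and an adjusted p of 1. All 6 were named among the genes of lowest p in those contrasts, which favours such opposite signs.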

How the results depend on the processing

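In polysome RNA without IR, the 6 calls became 10 at the design text's threshold (unadjusted p under 0.05 and a log2 difference over 1.5 in size), 0 with the 6 arrays alone, 2 after median centring, 240 with array weights and 1 to 6 on leaving out single arrays. Quantile normalization, polysome arrays alone, the filter on low levels, mean probe sets, a trended robust prior and leaving out 8 arrays found apart earlier (in the inhibitor groups replicate 3, plus 1 total RNA array, PP242 with IR replicate 2) gave 4 to 8. With the replicate number as a block they became 12 (all arrays), 474 (inhibitor arrays) or 2 (the 6 arrays), and, added after seeing the data, 20 without replicate 3 and 449 with quantile normalization. With IR, 1 call became 7, 0 (arrays compared, or without the 8 arrays), 3 (quantile), 4 (low-level filter), 12 (array weights), 1 to 3 on leaving out arrays, and 2, 221 and 3 with the block, 5 and 230 in its added forms. Averaged over IR, 61 became 7 (design text), 193 (polysome arrays), 117 (quantile), 26 (centring), 449 (array weights), 24 to 46 on leaving out arrays, and 136, 1483 and 1483 with the block, 304 and 1563 in its added forms. In total RNA, 1 became 37 (design text), 2 (quantile), 0 (arrays compared, total arrays, or without the 8 arrays), 1 to 7 on leaving out arrays, and 4, 0 and 0 with the block. Translational efficiency and the interaction with IR gave 0 except at the design text's threshold, with 18 and 1. Over 216 named genes, 0 values changed sign in an alternative where the gene passed in that alternative or in the main fit. Sign changes of genes that passed in neither were not counted. Under the alternatives 3946 values stayed on the same side of the threshold, 289 newly passed and 51 no longer passed. Of the 37 list medians, 18 moved by more than the spread between pairs without PP242 replicate 3, 16 without RAD001 replicate 3, 8 to 12 without any other of the 6 arrays and 9 with the low-level filter, 92 moves over all settings. Causes were not tested. The unblocked contrast of the 6 arrays alone had 4 residual degrees of freedom, and the blocked one 2.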

Other observations

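Some of the largest differences lay outside the lists and the naming rule and were chosen after their values were seen. SNAI1, a transcriptional repressor of epithelial genes, was lower with PP242 than with RAD001, with a difference of -1.46 without IR and -1.44 with IR in the blocked limma fit. ARRDC3, an arrestin-domain protein, was lower, at -1.43 and -1.33. PPP1R15A, the stress-induced regulatory subunit that directs a phosphatase to eIF2 alpha, was higher by 1.39 and 1.30, beside the rise of ATF4. SMG5, a further protein of nonsense-mediated decay, was higher by 1.05 and 0.90. All passed in both. None of these genes passed in the fit without the block or in the blocked fit without replicate 3.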
